A study of Mus musculus with 41 samples.

Results

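Genes of bone morphogenetic protein (BMP) signalling were followed through the conversion of mouse embryonic stem cells towards formative stem cells, in cells depleted for the nuclear receptor Esrrb and in cells wild type for it. The 7 members were taken by name: the ligand Bmp4, the type I receptor Bmpr1a, the helix-loop-helix proteins Id1, Id2, Id3 and Id4, and the inhibitory Smad protein Smad6. All 7 were among the 55487 genes of the deposited table and among the 16967 that passed the filter on low values. The 41 libraries came from E14 mouse embryonic stem cells of 3 lines: KO2 (15 libraries) and KO3 (11 libraries), both genetically depleted for Esrrb, and WT (15 libraries), wild type for Esrrb. Each line was sampled in 2iL, a serum-free medium with the inhibitors CHIR99021 and PD0325901 and with LIF that holds cells in the naive state, and after 1 day in plain N2B27 followed by 1, 3 or 5 days in AloXR, which holds activin A, XAV and BMS439. There were 3 libraries of each line in 2iL and 4 at each AloXR time, except 2 of KO3 at day 3 and 2 at day 5. Neither the 2iL nor the AloXR medium, as the labels list them, has an added BMP.

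BMP ligands bind pairs of type I and type II receptors, which phosphorylate Smad1, Smad5 and Smad9, and these enter the nucleus with Smad4. Id1, Id2, Id3 and Id4 are classical targets of that route in many cell types: they have no DNA-binding region and hold E proteins away from DNA. Smad6 is induced by the same route and inhibits it. In mouse embryonic stem cells BMP4 acts with LIF to hold back neural differentiation, largely through Id proteins, and in the embryo it is needed for mesoderm and for primordial germ cells.

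QuantSeq yields a tag from the 3′ end of a transcript. The unit, CPM (the share of a library's reads, scaled to 1000000), therefore needs no length scaling, although priming may differ between 3′ ends. Depth was 3424064 to 5736053 reads per library, and 3 reads, the limit that a count of 0 allows, equal 0.523 to 0.876 CPM for counting error only. Changes below are differences of mean log2(CPM + 1) with the standard error of the fit; they understate the change of low genes. A gene is called at an adjusted p under 0.05 (limma, Benjamini-Hochberg) and at least 1.5-fold, and for the mean of both depleted lines only if both have the same sign. With 1 WT line, loss of Esrrb and any other difference of the lines cannot be told apart. Whether the libraries of a group came from separate cultures is not given, so the p-values measure the spread between these libraries, which may be technical. Esrrb itself was at 52.0 to 56.7 CPM in KO2, 103 to 166 CPM in KO3 and 309 to 434 CPM in WT in 2iL, and at AloXR day 1 it was at 1.64 to 5.52 CPM in KO2, 26.1 to 41.4 CPM in KO3 and 12.1 to 17.7 CPM in WT. Because the labels do not say which part of the gene was altered, these 3′ tags do not check the genotype. The pluripotency markers Pou5f1, Sox2, Nanog, Utf1, Zfp42 and Tdgf1 were detected in every library, though Zfp42 went down to 0.218 CPM, below the limit of 3 reads. Their summed level was lower at day 5 than in 2iL. It was 1631 to 1892 CPM in KO2, 1285 to 1883 CPM in KO3 and 1736 to 2016 CPM in WT in 2iL. At day 5 it was 351 to 589 CPM in KO2, 481 to 493 CPM in KO3 and 342 to 389 CPM in WT. The third 2iL library stood apart most in WT, for Bmp4, Id1 and Id3, and in KO3 for Id3. It was the highest of its line for Id1 and Id3 in each line, though less far apart in KO2. Results in 2iL are given with and without the third library of each line where that matters.

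Bmp4, Id4 and Smad6 were called lower in the mean of both depleted lines in 2iL and again at day 5. The 250 bases upstream of their RefSeq start sites (GRCm38.p6) are shown for that reason, each 5′ to 3′ on the strand of the gene, with the GC-rich sequence GGCGCC that Smad1 and Smad5 can bind in capitals. Bmp4 is read from chr14:46390670-46390919 on the minus strand, Id4 from chr13:48260866-48261115 on the plus strand and Smad6 from chr9:64022060-64022309 on the minus strand.
Bmp4: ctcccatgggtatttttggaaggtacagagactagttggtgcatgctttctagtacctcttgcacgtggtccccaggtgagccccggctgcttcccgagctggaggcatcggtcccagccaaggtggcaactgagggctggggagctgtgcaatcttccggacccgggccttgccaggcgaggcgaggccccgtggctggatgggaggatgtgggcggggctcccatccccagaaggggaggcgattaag
Id4: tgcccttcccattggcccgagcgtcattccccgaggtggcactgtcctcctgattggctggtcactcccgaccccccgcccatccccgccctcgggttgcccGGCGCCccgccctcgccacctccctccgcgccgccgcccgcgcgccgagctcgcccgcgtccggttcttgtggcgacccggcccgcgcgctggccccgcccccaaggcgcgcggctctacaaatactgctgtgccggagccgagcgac
Smad6: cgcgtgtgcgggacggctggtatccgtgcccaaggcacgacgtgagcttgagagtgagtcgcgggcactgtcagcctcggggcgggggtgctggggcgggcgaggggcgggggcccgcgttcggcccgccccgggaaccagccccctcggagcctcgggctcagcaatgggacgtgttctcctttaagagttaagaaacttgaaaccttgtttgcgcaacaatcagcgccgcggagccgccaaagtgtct
Id4 holds 1 GGCGCC, and Bmp4 and Smad6 hold none. Of the 6 members matched in the promoter table (all but Id1), Id2 and Bmpr1a also hold 1 each in the same window, against 9.59% of 32851 promoters of that length. CAGAC, the short Smad-binding sequence, was found in the window of Id3, in 2 copies, and in 42.2% of all promoters, and TCAAGGTCA, the sequence that Esrrb binds, was found in none of the 6 and in 0.387% of all promoters, both strands searched. These matches are letters in a window, not sites of binding.

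Bmp4 lies on chromosome 14 (46383520 to 46390669, minus strand, GRCm38). In 2iL it was at 2.34, 1.83 and 2.93 CPM in KO2 and 2.22, 1.20 and 1.74 CPM in KO3, against 16.8, 15.1 and 38.2 CPM in WT. All 6 depleted libraries lay below every WT library, and the third WT library was the highest of all 41. At day 1 Bmp4 was at 5.52, 3.68, 4.43 and 2.73 CPM in KO2 and 2.61, 1.53, 2.14 and 2.03 CPM in KO3, against 9.45, 5.80, 9.70 and 11.3 CPM in WT. The lowest WT library at day 1 was close to the highest KO2 library, yet none overlapped. At day 3 it was at 2.97, 1.01, 2.50 and 1.36 CPM in KO2 and 1.03 and 0.730 CPM in KO3, against 4.67, 4.37, 4.51 and 5.79 CPM in WT, again without overlap. At day 5 it was at 0.683, 0.71, 3.12 and 2.30 CPM in KO2 and 0.725 and 1.13 CPM in KO3, against 15.1, 11.1, 10.9 and 13.1 CPM in WT. The gap was thus widest at both ends of the course: WT started high, fell until day 3 and was up again at day 5, while the depleted lines stayed at 3 to 22 reads per library.

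The change of Bmp4 in both depleted lines against WT was -2.90 ± 0.27 in 2iL (limma adjusted p = 1.23e-11), -1.33 ± 0.24 at day 1 (2.91e-05), -1.33 ± 0.25 at day 3 (7.71e-05) and -2.62 ± 0.25 at day 5 (5.47e-11). Without the third 2iL library of each line the 2iL change was -2.57 (9.58e-09). KO2 and KO3 each passed the test on their own at all 4 times, with KO2 at -2.75, -0.98, -1.03 and -2.43 and KO3 at -3.06, -1.69, -1.63 and -2.81. Of all genes 17.8%, 13.5%, 14.3% and 16.8% were called in KO2 at these times, and 13.2%, 15.4%, 19% and 25.5% in KO3. In such bulk samples fewer cells of a type and less RNA per cell cannot be told apart.

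**Figure D1:**
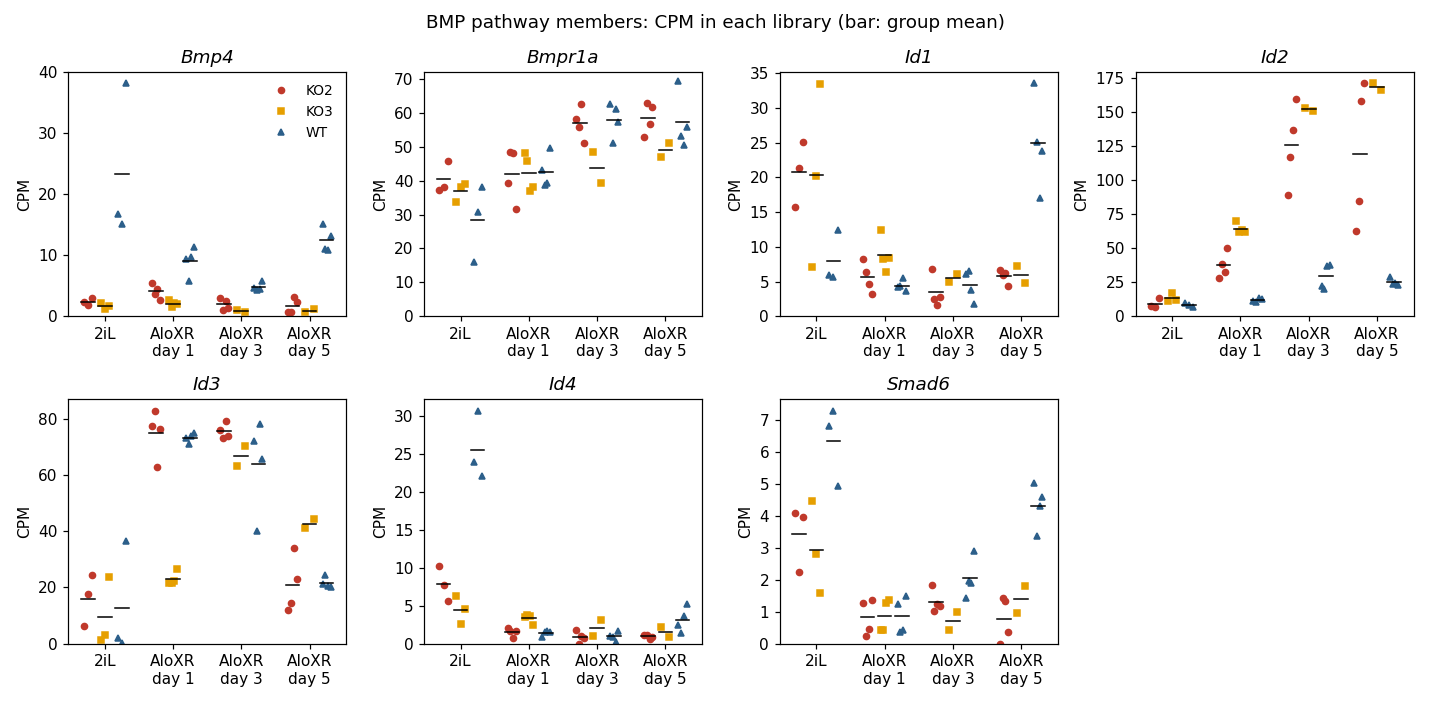
CPM of the 7 members in each of the 41 libraries (vertical axes, linear, from 0) by time (horizontal axes), with KO2 as circles, KO3 as squares, WT as triangles and the mean of each group as a bar. Bmp4 is below WT in every depleted library at every time, Id2 is above WT in every depleted library from day 1 to day 5, and Id1 at day 5 is at 4.43 to 7.25 CPM in the depleted lines, against 17 to 33.6 CPM in WT.

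Many genes near Bmp4 were also lower in the depleted lines. Of the 40 nearest genes with a mean of at least 10 CPM, 20 on each side, 32 were below 0 in the mean of both depleted lines at each time, with a median of -0.81 in 2iL, -0.78 at day 1, -0.74 at day 3 and -0.61 at day 5. Bmp4 lay below all 40 in 2iL and at day 5, by 2.10 and 2.01 below their median, whereas 3 of the 40 were lower than Bmp4 at day 1 and 3 at day 3. The nearest measured genes on one side, Cdkn3 (a phosphatase of cyclin-dependent kinases), Cnih1 and Gmfb, were called lower at days 1, 3 and 5, with Cdkn3 at -1.02, -1.68 and -1.82, Cnih1 at -0.80, -1.18 and -1.29 and Gmfb at -0.90, -0.85 and -0.98; of these Gmfb was also called in 2iL (-0.74). On the other side Gm7206, Gm8317 and Gm1821 were not called at any time. Gm7206 and Gm8317 averaged 0.289 and 0.78 CPM, so low that a change could hardly be called, and Gm1821 averaged 101 CPM. The next genes of at least 10 CPM beyond them were lower. Fermt2 was at -1.19, -0.97, -0.74 and -1.27 in 2iL and at days 1, 3 and 5. Gnpnat1 was at -0.87, -1.15, -1.10 and -0.72, and Psmc6 at -0.95, -0.91, -0.99 and -0.73. With each gene centred on its neighbours, Bmp4 was still called in 2iL, at day 1 and at day 5, but not at day 3 (-0.65, adjusted p = 0.0592). The part of the segment in the lower level of Bmp4 was not tested.

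**Figure D2:**
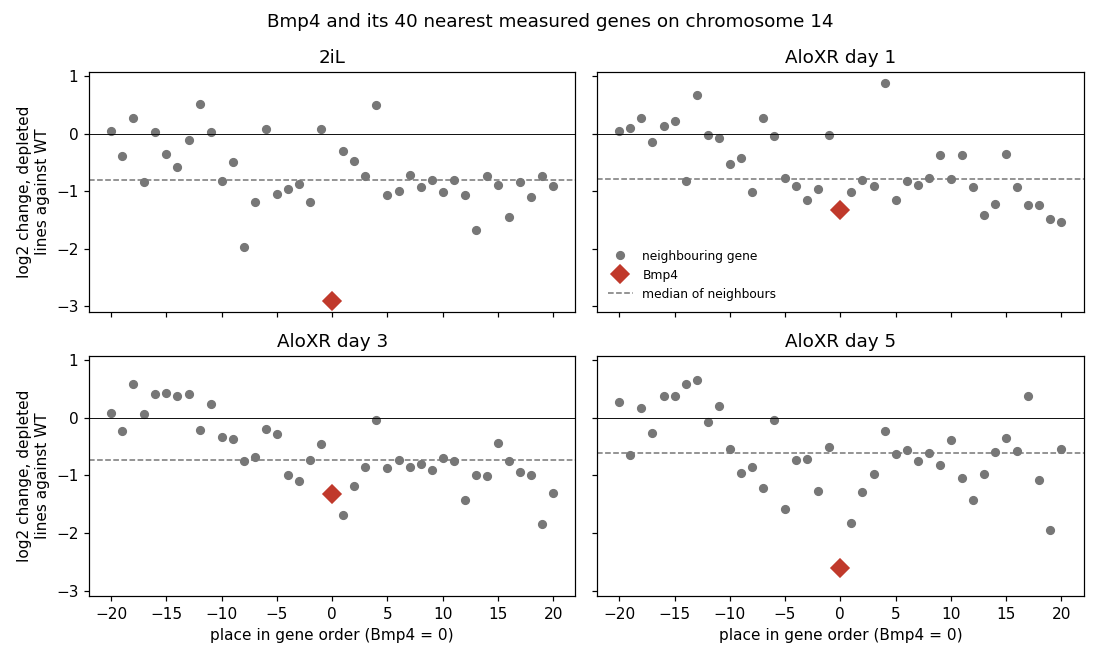
Log2 change of both depleted lines against WT (vertical axes) for Bmp4 (diamond) and its 40 nearest genes of at least 10 CPM on chromosome 14 (circles), by their place in gene order (horizontal axes), with the median of the 40 as a dashed line. Bmp4 is the lowest point in 2iL and at day 5 and lies among its neighbours at days 1 and 3.

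Bmpr1a, a type I receptor that BMP4 binds, lies on the same chromosome (34410734 to 34503341, minus strand) and was the steadiest member. It ranged from 31.6 to 62.9 CPM in KO2, from 33.6 to 51.2 CPM in KO3 and from 15.9 to 69.4 CPM in WT over all times. In 2iL it was at 37.1, 38.1 and 45.8 CPM in KO2 and 33.6, 38.1 and 39.1 CPM in KO3, against 15.9, 30.7 and 38.2 CPM in WT, so that the groups overlapped through the third WT library. The change of 0.52 ± 0.16 in 2iL passed the p threshold but not the fold (adjusted p = 0.0133), and without the third 2iL libraries it was 0.70 (0.00159) and called. Without WT library 1, the lowest, it was 0.16 (0.536), and without WT library 2 or 3 alone it was 0.62 (0.0135) or 0.77 (3.36e-04). At days 1, 3 and 5 the changes were -0.03, -0.21 and -0.08, with limma adjusted p of 0.923, 0.304 and 0.715. Its own 40 neighbours had medians of -0.32, -0.20, -0.31 and -0.27, and centred on them Bmpr1a was called higher in 2iL (0.96, adjusted p = 2.10e-06). Those 40 run from 31019138 to 47531962, past Bmp4, and take in its lower neighbours Cdkn3, Cnih1 and Gmfb. How much such genes add to the centred value was not tested. The nearest measured genes of Bmpr1a were Fam25c, Sncg and Mmrn2 on one side and Ldb3, Opn4 and 5830448L01Rik on the other, and those called were Fam25c lower (-0.83) at day 1, Sncg higher at days 1 (1.47) and 3 (0.68), Mmrn2 higher at days 1 (0.67) and 5 (0.66), and 5830448L01Rik higher at day 5 (0.74). None of them was called in 2iL, where they were at -0.58 (Fam25c) to 0.31 (Ldb3).

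Id2 (chromosome 12, 25093799 to 25097140, minus strand) was called higher in both depleted lines from day 1 on. In 2iL it was at 7.89, 6.90 and 13.2 CPM in KO2 and 11.1, 17 and 11.7 CPM in KO3, against 9.78, 8.33 and 6.87 CPM in WT, and the groups overlapped. At day 1 it was at 28.1, 38.6, 32.4 and 50.4 CPM in KO2 and 70.1, 61.5, 63.6 and 62.1 CPM in KO3, against 11.2, 10.8, 13.6 and 12.6 CPM in WT. At day 3 it was at 89.3, 117, 136 and 159 CPM in KO2 and 153 and 150 CPM in KO3, against 22.5, 20.1, 37.0 and 38.0 CPM in WT. No depleted library overlapped WT from day 1 on. Day 5 values were 62.6, 84.2, 158 and 171 CPM in KO2 and 171 and 166 CPM in KO3, against 28.8, 23.8, 24.3 and 22.7 CPM in WT. The 4 KO2 libraries were spread widely at day 5, and the highest was level with KO3. Id2 in both depleted lines differed from WT by 0.36 ± 0.23 in 2iL (limma adjusted p = 0.308, not called) and rose by 1.93 ± 0.20 at day 1 (2.89e-09), 2.23 ± 0.22 at day 3 (4.36e-10) and 2.41 ± 0.22 at day 5 (1.04e-10). The calls at days 1, 3 and 5 held under every alternative run.

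Id1 (chromosome 2, 152736251 to 152737410, plus strand) was called in opposite directions at the ends of the course. In 2iL it was at 15.8, 21.3 and 25.1 CPM in KO2 and 7.12, 20.2 and 33.5 CPM in KO3, against 5.92, 5.73 and 12.4 CPM in WT, with 5 of 6 depleted libraries above every WT library. At day 1 it was at 3.27 to 8.28 CPM in KO2, 6.43 to 12.4 CPM in KO3 and 3.62 to 5.57 CPM in WT, and at day 3 at 1.67 to 6.85 CPM in KO2, 4.94 to 6.08 CPM in KO3 and 1.81 to 6.55 CPM in WT. At day 5 it was at 6.60, 5.91, 6.23 and 4.43 CPM in KO2 and 7.25 and 4.76 CPM in KO3, against 33.6, 25.2, 17 and 23.8 CPM in WT. All 6 depleted libraries lay below WT at day 5, at 21 to 30 reads each against 75 to 154 reads in WT. Id1 was called higher in 2iL, by 1.20 ± 0.33 (limma adjusted p = 0.00712), and lower at day 5, at -1.89 ± 0.31 (1.10e-05), and was not called at day 1 (0.55, 0.193) or day 3 (-0.01, 0.988). The 2iL call was lost without WT library 1 (0.0635) or 2 (0.0643) and in a fit of the 2iL groups alone (0.0845).

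Id3 (chromosome 4, 136143497 to 136145755, plus strand) was the most abundant Id gene of WT cells at days 1 and 3. In 2iL it was at 6.13, 17.7 and 24.3 CPM in KO2 and 1.11, 3.21 and 23.9 CPM in KO3, against 1.82, 0.260 and 36.5 CPM in WT, so that the third library was the highest in each line. At day 1 it was at 77.6, 83.0, 63.1 and 76.6 CPM in KO2 and 21.5, 21.4, 22.3 and 26.6 CPM in KO3, against 73.2, 71.3, 74.1 and 75.2 CPM in WT. KO3 lay below both other lines at day 1 without overlap. At day 3 it was at 73.2 to 79.4 CPM in KO2, 63.1 and 70.3 CPM in KO3 and 40.2 to 78.3 CPM in WT. Day 5 values were 12.1, 14.4, 34.1 and 23 CPM in KO2 and 41.1 and 44.4 CPM in KO3, against 21.4, 24.6, 20.7 and 20.3 CPM in WT. KO3 was above WT at day 5, and KO2 lay on both sides of it. In both depleted lines against WT Id3 was called at none of the 4 times, with changes of 0.90 ± 0.63, -0.81 ± 0.55, 0.19 ± 0.59 and 0.39 ± 0.59 in 2iL and at days 1, 3 and 5 and limma adjusted p of 0.352, 0.336, 0.859 and 0.658. These standard errors carry the spread of the 2iL libraries, since 1 spread per gene was fitted. At days 1 and 5 KO2 and KO3 also had opposite signs, so the mean could not be called whatever the spread. The change at day 1 was 0.02 in KO2 (limma adjusted p = 0.989) and -1.64 in KO3 (0.0611). At day 5 it was -0.16 in KO2 (0.90) and 0.95 in KO3 (0.381). Without the third 2iL library of each line Id3 was called higher in 2iL (1.64, 5.26e-04), and without WT library 3 alone likewise (2.34, 9.96e-04).

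Id4, known for its part in neural progenitors, lies on chromosome 13 (48261228 to 48266026, plus strand). It was at 10.2, 7.71 and 5.65 CPM in KO2 and 6.23, 2.60 and 4.53 CPM in KO3 in 2iL, against 23.9, 30.7 and 22.1 CPM in WT. No depleted library overlapped WT there. From day 1 on it was near the limit of detection in all lines, at 0 to 2.01 CPM in KO2, 0.906 to 3.72 CPM in KO3 and 0.237 to 5.24 CPM in WT. At day 5 it was at 1.14, 1.18, 0.668 and 0.886 CPM in KO2 and 2.17 and 0.906 CPM in KO3, against 2.40, 1.39, 3.64 and 5.24 CPM in WT, with 5 of 6 depleted libraries below WT and 3 to 9 reads behind each depleted value. Id4 was called lower in 2iL, at -1.97 ± 0.29 (limma adjusted p = 1.23e-06), and at day 5, at -0.83 ± 0.28 (0.0168). The day 5 call was lost without WT library 3 (0.0567) or 4 (0.116) or KO3 library 2 (0.118), in KO3 alone (0.157) and centred on its neighbours (0.0602). With a pseudocount of 5 CPM it missed the fold (-0.37).

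Smad6, the inhibitory Smad, lies on chromosome 9 (63953076 to 64022059, minus strand). It was at 4.09, 2.23 and 3.98 CPM in KO2 and 4.45, 2.80 and 1.57 CPM in KO3 in 2iL, against 6.83, 7.29 and 4.93 CPM in WT. The groups did not overlap, but the highest depleted library was close to the lowest WT library. At day 1 Smad6 was at 0.230 to 1.36 CPM in KO2, 0.435 to 1.35 CPM in KO3 and 0.374 to 1.49 CPM in WT. At day 3 it was at 1.01 to 1.83 CPM in KO2, 0.411 and 0.973 CPM in KO3 and 1.42 to 2.89 CPM in WT. Day 5 values were 0, 1.42, 1.34 and 0.354 CPM in KO2 and 0.966 and 1.81 CPM in KO3, against 5.02, 3.37, 4.32 and 4.58 CPM in WT, that is 0 to 8 reads in each depleted library and 17 to 23 reads in each WT library. Smad6 was called lower in 2iL, at -0.85 ± 0.28 (limma adjusted p = 0.0246), and at day 5, at -1.42 ± 0.26 (4.73e-05). The 2iL call was lost in 9 of 22 alternatives. It did not hold with edgeR on the recovered reads (0.0547), in a fit of the 2iL groups alone (0.104), with a pseudocount of 0.5 CPM (0.0663), or in KO2 alone (0.0966), and with a pseudocount of 5 CPM it missed the fold (-0.48). Nor did it hold without WT library 1 (0.0988) or 2 (0.116), KO2 library 2 (0.067) or KO3 library 3 (0.0719).

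Over the 7 members, 1 was called higher and 3 lower in 2iL, where 15.7% of all genes tested were called (8.11% higher and 7.6% lower). At day 1 it was 1 higher and 1 lower, against 11.8% of all genes (6.31% and 5.5%). At day 3 it was again 1 and 1, against 17.3% (10.8% and 6.49%). At day 5 it was 1 and 4, against 20.6% (8.89% and 11.7%), and the 4 lower were Bmp4, Id1, Id4 and Smad6.

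**Figure D3:**
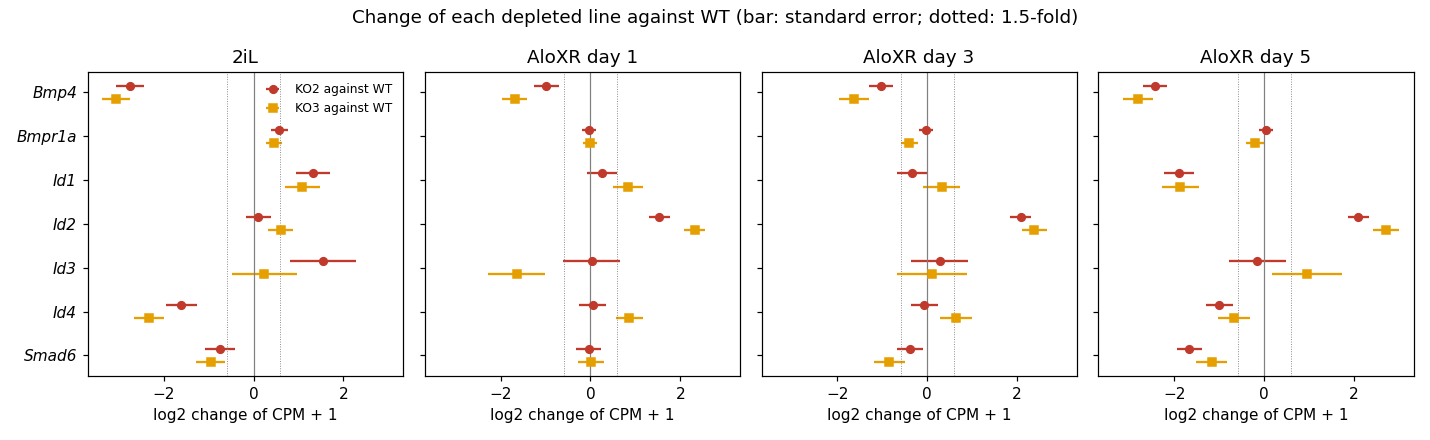
Log2 change of CPM + 1 (horizontal axes) of KO2 (circles) and KO3 (squares) against WT for the 7 members (vertical axis) at each time, with the standard error as a bar and 1.5-fold as dotted lines. Bmp4 is left of the dotted line in both lines at all 4 times, Id2 is right of it in both lines at days 1, 3 and 5, and Id3 in KO3 at day 1 (-1.64) has one of the widest bars.

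The order of levels over the 12 groups differed between members. Bmp4 ran from 23.4 ± 12.9 CPM (SD, n = 3) in WT in 2iL, then 12.5 ± 1.95 CPM (n = 4) in WT at day 5 and 9.06 ± 2.32 CPM (n = 4) in WT at day 1, down to 0.879 ± 0.211 CPM (n = 2) in KO3 at day 3, and WT in 2iL and WT at day 1 were the groups whose libraries did not overlap those of the next group down. For WT in 2iL this rests on 15.10 CPM against 15.05 CPM in WT at day 5. In those libraries 1 read equals 0.260 and 0.218 CPM, more than the gap. Id2 ran the other way, from 168 ± 3.70 CPM (n = 2) in KO3 at day 5 to 8.33 ± 1.46 CPM (n = 3) in WT in 2iL, a ratio of 20.2, with KO3 at day 5, KO3 at day 1 and WT at day 5 apart from the next group down. Id4 ran from 25.6 ± 4.55 CPM (n = 3) in WT in 2iL to 0.911 ± 0.754 CPM (n = 4) in KO2 at day 3, with WT in 2iL apart from the rest. For Id1 and Smad6 all 11 neighbouring pairs of groups overlapped, and for Bmpr1a, Id3 and Bmp4 10, 9 and 9 of 11 did.

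At the step into AloXR, day 1 against 2iL, Id3 (2.16 ± 0.48, limma adjusted p = 3.86e-04) and Id2 (2.06 ± 0.18, 2.36e-12) rose in the depleted lines. Id1 (-1.32 ± 0.26, 3.19e-05), Id4 (-1.06 ± 0.23, 9.93e-05) and Smad6 (-1.17 ± 0.22, 1.11e-05) fell in them, with 32.3% of all genes called. Id4 was called at this step in KO2 (-1.83) and not in KO3 (-0.29, 0.50), where 30.2% and 33.5% of all genes were called. In WT the same step took Bmp4 (-1.19 ± 0.29, 7.87e-04), Id4 (-3.48 ± 0.32, 1.25e-12) and Smad6 (-2.01 ± 0.31, 4.56e-07) down, with 36.4% of all genes called. Id3 (3.87 ± 0.69, 2.62e-05) and Bmpr1a (0.65 ± 0.17, 0.00136) rose in WT. The Bmpr1a call was lost in 5 of 17 alternatives. It was at 0.30 (0.129) without WT library 1 in 2iL, and it passed the p threshold but not the fold without WT library 4 at day 1 (0.58), with edgeR (0.58), with DESeq2 (0.56) and with a pseudocount of 5 CPM (0.58). Without the third 2iL libraries the Id3 change was 2.86 in the depleted lines and 5.30 in WT.

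From day 1 to day 3 Id2 rose in the depleted lines (1.47 ± 0.19) and in WT (1.17 ± 0.23), and Bmp4 fell by 0.76 in the depleted lines and by 0.76 in WT. Of all genes 12.6% were called in the depleted lines and 18.7% in WT. Without the third 2iL libraries Id3 (0.76, 0.00958) and Id1 (-0.61, 0.0475) were also called in the depleted lines, and Smad6 (0.73, 0.0413) in WT. The fall of Bmp4 in the depleted lines was lost without KO3 library 2 at day 3 (0.0573) and in KO3 alone (0.205). It was also lost with a pseudocount of 5 CPM (-0.33, 0.051). In WT it was lost in 9 of 18 alternatives, with adjusted p up to 0.112; among them were leaving out WT library 1, 3 or 4 at day 1 and WT library 1, 2 or 3 at day 3.

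From day 3 to day 5 none of the 7 was called in the depleted lines in the limma fit of all 41 libraries, where 3.38% of all genes were, with Id1 at 0.41 ± 0.29, Bmp4 at -0.08 ± 0.23, Id4 at -0.06 ± 0.26 and Smad6 at 0.02 ± 0.24. These means of both lines hide differences between them. Smad6 was at -0.46 in KO2 and 0.49 in KO3, and Id1 at 0.73 and 0.09, none of them called. In the mean of both lines Id3 alone of the 7 had an unadjusted p under 0.05 (-1.27, 0.0277), and edgeR called Id3 alone (adjusted p = 0.0451). In limma Id3 was called at this step without the third 2iL libraries (7.29e-04) and with only the groups compared (0.00176). In WT 4 of 7 members were called higher, where 9.96% of all genes were called higher and 13.9% in all: Id1 by 2.28 ± 0.33 (3.49e-06), Bmp4 by 1.21 ± 0.27 (9.70e-04), Id4 by 1.06 ± 0.29 (0.00723) and Smad6 by 0.82 ± 0.28 (0.0334). The Smad6 call was lost in 13 of 18 alternatives, among them leaving out WT library 1, 2 or 3 at day 3 or 1, 3 or 4 at day 5. The Id4 call was lost in 3 of 18, among them leaving out WT library 3 at day 3 (0.0506) or 4 at day 5 (0.0553). The share of higher genes at this step depends on scaling, and is given with the alternatives. Id3 in WT was at -1.48 in the same step, not called (0.102). It was called in 4 of 17 alternatives: without the third 2iL libraries (1.64e-04), with only the groups compared (4.10e-06), with edgeR (0.00648) and with a pseudocount of 5 CPM (0.0235).

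The difference between these changes, depleted lines minus WT, was tested directly. From 2iL to day 1 it was called for Bmp4 (1.57 ± 0.36, limma adjusted p = 0.00206), Id2 (1.57 ± 0.31, 5.07e-04) and Id4 (2.42 ± 0.39, 1.50e-05), 3 of 7 members against 9.15% of all genes. Of these, Id2 alone was called higher at this step in the depleted lines, and Bmp4 and Id4 fell in WT. Bmp4 was already at 1.20 to 2.93 CPM in the depleted lines in 2iL. Its change to day 1 in them was 0.38 ± 0.21 (limma adjusted p = 0.118, not called). The part of this low level in the difference was not tested. Id4 at day 1 was at 0.699 to 3.72 CPM in the depleted lines and 0.875 to 1.65 CPM in WT. For Id3 the difference from 2iL to day 1 was -1.71 ± 0.84 (0.22), and without the third 2iL libraries -2.44 (9.36e-05), where Bmpr1a was called too (-0.73, 0.0117). From 2iL to day 3 it was called for Bmp4 (1.57), Id2 (1.87), Id4 (2.25) and Bmpr1a (-0.73), 4 of 7 against 14.8%. Without the third 2iL libraries Id3 (-1.45, 0.0140) and Id1 (-1.24, 0.0461) were also called, against -0.71 (0.638) and -1.21 (0.0626) with them. The Id1 difference at day 3 was called in 8 of 32 alternatives, 4 of which left out 1 library: WT library 3 (0.0183) or KO3 library 1 (0.00670) in 2iL, and WT library 4 (0.0177) or KO2 library 1 (0.0227) at day 3. From 2iL to day 5 it was called for Id1 (-3.09 ± 0.46, 3.17e-06), Id2 (2.05 ± 0.32, 1.07e-05), Id4 (1.13, 0.0395) and Bmpr1a (-0.60, 0.0413), 4 of 7 against 17.9%. Leaving out WT library 3 in 2iL alone, the Id3 difference was called at day 1 (-3.14, 8.25e-04), day 3 (-2.15, 0.0192) and day 5 (-1.94, 0.0357). For Bmp4 the difference to day 5 was 0.29 ± 0.37 (0.638). The Bmpr1a difference at day 5 was lost in 18 of 32 alternatives, among them leaving out WT library 1 in 2iL (-0.24, 0.408), KO2 library 3 or KO3 library 2 or 3 in 2iL, and WT library 1 or 4, KO2 library 1 or 3 or KO3 library 1 or 2 at day 5. The Id4 difference at day 5 was lost in 15 of 32, among them leaving out WT library 1 or 2, KO2 library 2 or KO3 library 1 at day 5 and WT library 1 or 2, KO2 library 3 or KO3 library 2 in 2iL (adjusted p up to 0.123 in these). The Bmpr1a difference at day 3 was -0.38 (0.211) without WT library 1 in 2iL. For the last step alone, day 3 to day 5, a comparison added after these values were seen, the difference was called for Id1 (-1.88 ± 0.44, 0.00637) and Bmp4 (-1.29 ± 0.36, 0.0205), against 6.02% of all genes, and not for Id4 (-1.12, 0.0707) or Smad6 (-0.80, 0.205). The Bmp4 call at this step did not hold with edgeR (0.14) or DESeq2 (0.0906) on the recovered reads, nor with quantile normalization (0.073), in KO3 alone (0.147), or without WT library 1 at day 5 (0.0516), KO3 library 1 at day 3 (0.0552) or KO3 library 1 at day 5 (0.0571). The Id1 call was lost in KO2 alone (0.0563).

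**Figure D4:**
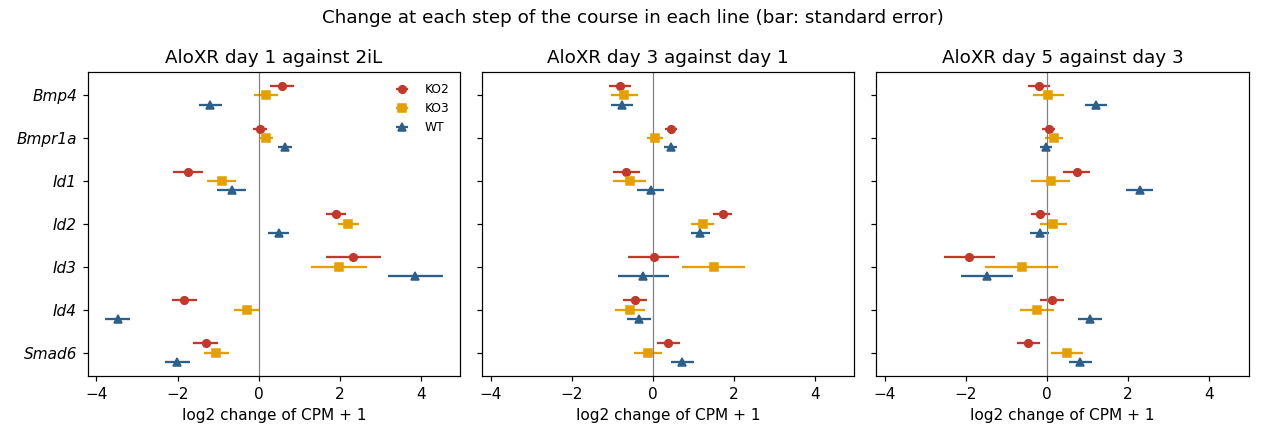
Log2 change of CPM + 1 (horizontal axes) of the 7 members (vertical axis) at each step of the course in KO2 (circles), KO3 (squares) and WT (triangles), with the standard error as a bar. At the step from day 3 to day 5 the WT points of Bmp4, Id1, Id4 and Smad6 lie right of 0 (0.82 to 2.28), and the points of Bmp4 and Id4 in both depleted lines lie near 0.

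Between KO3 and KO2, members were called at day 1. Id2 was higher in KO3 than in KO2 (0.80 ± 0.23, limma adjusted p = 0.0111), without overlap, and Id4 was called higher (0.82 ± 0.29, 0.0372), at 11 to 17 reads in KO3 against 3 to 8 reads in KO2; 15% of all genes were called. The Id4 call was lost in 11 of 19 alternatives, among them leaving out KO3 library 1, 2 or 3 or KO2 library 2, 3 or 4 (adjusted p up to 0.143). Id3 in KO3 against KO2 at day 1 was -1.66 ± 0.63 (0.0567), just short of the threshold although the libraries did not overlap; without the third 2iL library of each line it was called (3.27e-05), as it was in 5 other alternatives of 18, edgeR on the recovered reads among them (0.00389). Bmp4 at day 1 was at -0.71 ± 0.27 in KO3 against KO2 (0.0529) and was called in 7 of 19 alternatives, with adjusted p down to 0.0325 without the third 2iL libraries and at 0.0350 without KO2 library 4. In 2iL (7.24% of all genes called), at day 3 (7.69%) and at day 5 (14.1%) no member was called between KO3 and KO2 in the limma fit of all 41 libraries, and 2 of the 21 values there, Id4 in 2iL (-0.72, 0.192) and Id2 at day 5 (0.62, 0.134), had an unadjusted p under 0.05 (0.0389 and 0.0376). With edgeR none of the 21 was called. Without the third 2iL libraries Id3 was called in 2iL (-1.95, 9.92e-04) and at day 5 (1.11, 0.0174). It was also called in 2iL without KO3 library 3 alone (-2.33, 0.0266) and at day 5 with only the groups compared (0.0438). Id2 at day 5 was called centred on its neighbours (0.84, 0.0440) and without KO2 library 4 (0.83, 0.0356).

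Other genes of the pathway, in lists chosen by their roles, moved both ways. Of 8 measured ligands of 16 listed, Bmp4 aside, Bmp7 was lower in the depleted lines in 2iL (-1.22 ± 0.32) and at day 5 (-2.22 ± 0.30, adjusted p = 2.42e-07) and, like Bmp4, rose in WT from day 3 to day 5 (1.54). Gdf3, a ligand of the same superfamily made by pluripotent cells, was higher at day 3 (2.42 ± 0.20) and day 5 (1.34 ± 0.20). Bmp8a was higher at day 1 (0.97) and day 5 (2.02), Bmp8b in 2iL (0.74) and at days 1 (1.25) and 3 (1.13), and Bmp2 at day 1 (0.75). Bmp8a was low, with KO3 above KO2. At day 1 it was at 1.91 to 3.73 CPM in KO2, 4.93 to 7.40 CPM in KO3 and 1.31 to 2.34 CPM in WT. Day 5 values were 0.683 to 3.19 CPM in KO2, 4.76 and 11.1 CPM in KO3 and 0 to 0.436 CPM in WT. Counting Bmp4, 1 ligand was called higher and 2 lower in 2iL, 3 and 1 at day 1, 2 and 1 at day 3, and 2 and 2 at day 5, with medians of -0.21, 0.44, 0.33 and 0.33 against 0.04, 0.02, 0.03 and 0.00 over all genes. The share of all genes called at these times was 15.7%, 11.8%, 17.3% and 20.6%.

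Of 9 measured receptors and co-receptors of 10 listed, 0 were called higher and 1 lower in 2iL, 1 and 1 at day 1, 0 and 1 at day 3, and 2 and 1 at day 5. Their medians were 0.09, 0.12, -0.19 and -0.13, and 15.7%, 11.8%, 17.3% and 20.6% of all genes were called. Rgma, a BMP co-receptor, was lower at days 1 (-0.72 ± 0.22), 3 (-1.35 ± 0.24) and 5 (-2.17 ± 0.24), Acvr1, a type I receptor, was lower in 2iL (-0.71), Rgmb was higher at day 1 (0.60), and Eng (1.30) and Bmpr1b (0.70) were higher at day 5. Of the 6 Smads, all measured, 2 were called lower in 2iL, 1 higher at day 3, and 1 higher and 1 lower at day 5. The Smad medians were -0.19, -0.10, -0.20 and -0.14 in 2iL and at days 1, 3 and 5. Smad9, a receptor-regulated Smad, was lower in 2iL (-2.37 ± 0.23, limma adjusted p = 2.16e-11), and Smad7, the other inhibitory Smad, was higher at day 3 (0.87 ± 0.24) and day 5 (1.52 ± 0.24). Smad6 and Smad7 were thus called in opposite directions at day 5.

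Of 12 measured extracellular inhibitors and modulators of 16 listed, 1 was called higher and 4 lower in 2iL, 2 higher at day 3, and 3 higher and 2 lower at day 5, with a median of 0.04 at day 1. Their 2iL medians were -0.68 in KO2 and -0.46 in KO3. The share of all genes called was 15.7% in 2iL, 17.3% at day 3 and 20.6% at day 5. In 2iL Fstl1 (-1.85), Chrd (-1.14) and Twsg1 (-1.03) were among the lower genes and Fstl3 (0.98) higher. At day 3 Fstl3 (1.80) and Nog (0.76), a secreted antagonist of BMP4, were higher. At day 5 Fstl3 (1.87) and Sostdc1 (1.31) were among the higher genes and Bambi, a decoy receptor (-1.10), and Twsg1 (-0.73) were lower. Of 8 intracellular inhibitors, Smad6 and Smad7 aside, Skil was lower (-0.86) and Tob1 higher (0.84) at day 1. The 3 E proteins that Id proteins hold, Tcf3, Tcf4 and Tcf12, had medians of -0.15, 0.14, 0.01 and -0.12 in 2iL and at days 1, 3 and 5. A median of 3 genes can hide opposite changes. At day 3 mean Tcf3 was 79.9 CPM in KO2 and 70.3 CPM in KO3, against 103 CPM in WT. Mean Tcf12 was 183 and 169 CPM, against 127 CPM, and mean Tcf4 102 and 108 CPM, against 106 CPM.

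Among 17 measured genes of 19 listed as BMP targets, 5 of them members, 3 were called higher and 3 lower in 2iL, 6 and 0 at day 1, 9 and 1 at day 3, and 5 and 5 at day 5. Of the 12 that are not members, 2 and 1 were called in 2iL, 5 and 0 at day 1, 8 and 1 at day 3, and 4 and 2 at day 5. Their medians were 0.29, 0.43, 1.02 and 0.44, against 0.04, 0.02, 0.03 and 0.00 over all genes, of which 15.7%, 11.8%, 17.3% and 20.6% were called. The largest at day 3 were Dusp9 (2.57 ± 0.17), Gata3 (2.36 ± 0.29), Gata2 (2.23 ± 0.50) and Id2. Dusp9 was at 68.6 to 105 CPM in KO2, 107 and 112 CPM in KO3 and 13.8 to 16.6 CPM in WT. Gata3 and Gata2 were low. Gata3 was at 2.29 to 8.33 CPM in KO2, 7.81 and 9.73 CPM in KO3 and 0 to 1.31 CPM in WT. Gata2 was at 1.04 to 4.11 CPM in KO2, 5.84 and 6.58 CPM in KO3 and 0 in every WT library. The 1 lower target at day 3 was Hey1 (-1.34), named after its value was seen. Of the target list 3 genes (Gata3, Cdx2 and Hand1) are also in the trophoblast marker list, and that list moved too: of its 8 measured genes 5 were called higher at day 1 and 7 at day 3, with a summed level at day 3 of 419 to 688 CPM in KO2 and 527 to 580 CPM in KO3, against 142 to 173 CPM in WT. At day 5 that sum was 263 to 309 CPM in KO2 and 471 to 483 CPM in KO3, against 295 to 340 CPM in WT. Of the 9 listed genes Eomes, Tfap2c, Krt8, Krt18 and Ascl2 were at 0 in no library, Gata3 in 2, Hand1 in 13, Cdx2 in 19 and Elf5 in 34 of 41. The highest level in any library was 446 CPM for Krt18, 168 CPM for Krt8 and 120 CPM for Tfap2c. It was 30.4 CPM for Eomes, 3.86 CPM for Cdx2 and 0.437 CPM for Elf5.

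The primitive endoderm list had a summed level at day 5 of 7.81 to 14.2 CPM in KO2 and 84.0 to 95.6 CPM in KO3, against 5.15 to 8.73 CPM in WT, and 5 of its 7 measured genes were called higher at day 3 and 5 at day 5. Over all genes 10.8% were called higher at day 3 and 8.89% at day 5. Of its 8 listed genes Foxa2 and Dab2 were at 0 in no library, Lama1 in 1, Gata6 in 4, Pdgfra in 8, Gata4 in 9, Sox17 in 13 and Sox7 in 29. The germ cell list, which shares 1 gene with the targets, had a summed level at day 1 of 57.1 to 99.7 CPM in KO2 and 59.8 to 63.9 CPM in KO3, against 32.9 to 35.0 CPM in WT. At day 3 it was at 10.4 to 26.3 CPM in KO2 and 16 to 17.5 CPM in KO3, against 3.62 to 5.48 CPM in WT. The neuroectoderm list was at 56.7 to 82.8 CPM in KO2 and 77.9 to 100.1 CPM in KO3 at day 1, against 35.8 to 43.0 CPM in WT, and at day 5 at 132.0 to 229.6 CPM in KO2 and 245.3 to 261.8 CPM in KO3, against 123.4 to 140.5 CPM in WT. The fibroblast list was at 54.7 to 99.7 CPM in KO2 and 18.5 to 23 CPM in KO3 at day 3, against 20.1 to 26.4 CPM in WT. Mesoderm markers at day 5 were at 2.50 to 8.68 CPM in KO2 and 9.28 to 9.90 CPM in KO3, against 2.62 to 3.96 CPM in WT, and haematopoietic markers at 2.96 to 9.57 CPM in KO2 and 2.94 to 6.52 CPM in KO3, against 0.991 to 1.59 CPM in WT. In the neuroectoderm list Nes reached 254 CPM, against 35.1 CPM for Sox21, 14.6 CPM for Sox1 and 2.90 CPM for Pax6. In the germ cell list Dppa3 reached 235 CPM, and Prdm1, the next, 32.2 CPM. A sum can thus rest on few genes and does not by itself identify a cell type. The part of any such cells in the levels of Id2 and the other members was not tested.

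Over the 12 group means of log2(CPM + 1), Id2 was most like Trove2 (Pearson r = 0.97), AI661453 (0.97) and Pitpnm2 (0.96) among 10249 genes, Bmp4 like Cenpa (0.94), Rnf7 (0.92) and Tox4 (0.92, also on chromosome 14), Id1 like Flot1 (0.92), Numbl (0.90) and Appl1 (0.90), and Id3 like Mis12 (0.96), Mrm3 (0.96) and Gar1 (0.95). Between members r was highest for Id4 and Smad6 (0.77) and for Bmp4 and Smad6 (0.62), and lowest for Bmpr1a and Id4 (-0.83) and for Id3 and Id4 (-0.81). The points share the same libraries and depth, so these values are a description, with no p.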

How the data were processed

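RNA of 41 libraries was measured by QuantSeq 3′ sequencing. Per the submitters' processing notes, STAR 2.7.6a, featureCounts 2.0.1 and GRCm38 were used. The authors deposited CPM for 55487 Ensembl genes; columns sum to 1000000, every column was used, and no row lacks a gene. Whole reads were recovered from the CPM steps: 100% of 766190 values above 0 were whole within 0.01 reads, with a median of 4581394 reads per library. Symbols and positions for 55227 genes came from GENCODE (GRCm38).

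Genes reaching 1 CPM in 3 or more libraries were tested (16967), on log2(CPM + 1), with limma 3.58.1 in R 4.3.3. A mean was fitted for each group, with all 41 libraries in the fit and 29 residual degrees of freedom, trend and robust moderation, and p adjusted over all genes tested. Calls need an adjusted p under 0.05 and 1.5-fold. The fit was tested on simulated data. Alternatives were other pseudocounts, filters and scalings, edgeR 4.0.16 and DESeq2 1.42.0 on the recovered reads, the groups compared alone, each line alone, position-centred values, leaving out the third 2iL library of each line, and leaving out each library.

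The members and lists were chosen with earlier results of these data known. Named besides the members are up to 4 called genes with the largest change per list and comparison, the 3 nearest genes on each side of Bmp4 and Bmpr1a, the 3 most alike in pattern, and Esrrb. Outside this rule the listed E proteins, the listed markers, Hey1, Fermt2, Gnpnat1 and Psmc6 are named.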

Additional observations from a re-analysis of the deposited data

Results flagged for a closer look

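Some values stood out from the rest of their own group or between lines. In KO3 at day 1 the highest Id3 library, at 26.6 CPM, lay far from the other 3; 49 groups of 4 or more values were examined this way, and chance gives such a library in about 1 in 20.

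KO3 differed from KO2 at day 1 in Id2 (0.80) and in Id4 (0.82). The change from 2iL differed between the depleted lines and WT, by the test of the difference itself, for Bmp4 at day 1 (1.57) and day 3 (1.57), for Id2 at day 1 (1.57), day 3 (1.87) and day 5 (2.05), for Id4 at day 1 (2.42), day 3 (2.25) and day 5 (1.13), for Id1 at day 5 (-3.09), and for Bmpr1a at day 3 (-0.73) and day 5 (-0.60). For Bmp4 and Id4 WT fell from a higher 2iL level, whereas Id2 rose more in the depleted lines. The change from day 3 to day 5 differed for Bmp4 (-1.29) and Id1 (-1.88).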

How the results depend on the processing

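No call of a member turned its direction in any alternative run. Calls of both depleted lines against WT numbered 13 of 28, those of the WT course 11 of 21, of the depleted course 7 of 21, of the differences of change 11 of 21 and of KO3 against KO2 2 of 28. Leaving out each library gave 11 to 15, 8 to 13, 7 to 8, 8 to 16 and 1 to 4. A pseudocount of 5 CPM gave 4 calls in the depleted course. KO3 against KO2 gave 1 with a pseudocount of 0.5 CPM, 1 with no filter, 4 with a filter at 5 CPM, 5 with only the groups compared and 6 without the third 2iL libraries. The added difference from day 3 to day 5 gave 2 calls, and 1 with quantile normalization, 1 with edgeR, 1 in KO2 alone, 1 in KO3 alone and 1 to 3 without 1 library. DESeq2 gave no adjusted p for Id3 in any of these comparisons. It is left out of the alternatives for Id3 and counts as not called in the totals. Over all genes, a pseudocount of 5 CPM gave fewer calls of the depleted lines against WT, with 1396 in place of 2666 in 2iL, 848 in place of 2005 at day 1, 1338 in place of 2931 at day 3 and 1731 in place of 3491 at day 5. With only the 2iL groups the depleted lines against WT gave 1385. With only the 2iL groups KO3 against KO2 gave 118 calls for all genes in place of 1228. Of the genes called from day 3 to day 5 in WT, 71.5% were higher, and 51.5% with quantile normalization, 59.0% with TMM and 57.8% with edgeR; at day 3, 62.4% of the calls of the depleted lines against WT were higher, and 50.7% with quantile normalization. Depth limits Id4 and Smad6 most, at 0 to 24 reads per library from day 1 on. No paired analysis was possible because the titles carry no replicate numbers.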
